A study of Mus musculus with 56 samples.

Results

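Ras keratinocytes of the mouse epidermis were compared with and without transforming growth factor β1 (TGF-β1) after 1 h. This group held 6 of the 56 arrays of the series, chosen by their titles (Balb/c strain, ras cells, 1 h) and numbered replicates 1 to 6 in the labels. Each array carried RNA of untreated ras keratinocytes in the Cy3 dye and RNA of ras keratinocytes given TGF-β1 at 1 ng/ml for 1 h in the Cy5 dye, so both sides of every ratio came from oncogene-bearing cells. Per the labels' protocols, epidermal cells of newborn mice were put in culture, received the Ha-ras oncogene on day 3 through a retrovirus that cannot replicate, and were treated after 4 more days. The comparison groups are primary keratinocytes of the same strain without the oncogene at 1 h (6 arrays) and ras keratinocytes treated for 6 h (7 arrays of the same dye orientation), each set against its own untreated cells. Ras keratinocytes treated for 24 h and 48 h are described as well. The shared fit also held the other groups of the series, among them Smad3 wild-type and Smad3 knockout cells at 48 h. The labels do not say whether the arrays of a group came from separate cultures, so p-values measure only the spread between arrays, which may be technical. The RNA is that of a whole culture, in which fewer cells of a type and less RNA per cell cannot be told apart.

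TGF-β1 binds a pair of receptor kinases at the cell surface, which phosphorylate Smad2 and Smad3. These join Smad4, enter the nucleus and switch genes on or off together with other transcription factors. Within the first hour the cell makes messages that curb the signal, such as the inhibitory Smad7 and the SMAD repressor SnoN (gene Skil), and messages for transcription factors that carry the response on. In normal epidermis TGF-β1 halts keratinocyte division, for which loss of the growth-promoting factor Myc is a known early step, and ras-transformed keratinocytes are a model of a benign skin tumour.

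All values are log2 ratios of treated over untreated RNA after each array was centred on its median. A value of 1 is a doubling. The direction is likely, from the order of the channels, and is not stated with the values. All 6 arrays have the same dye orientation, so in the ratios themselves a bias of a gene towards 1 dye and the treatment cannot be told apart. A constant bias cancels where ras cells are set against primary cells or 6 h against 1 h.

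At 1 h few features were called, and their number changed with the settings used. Among them were Skil and Smad7, which act in the TGF-β pathway itself. Of 8905 features tested (6795 of them named genes), 7 passed an adjusted p under 0.05 (limma with Benjamini-Hochberg adjustment), which is 0.0786% of those tested, 6 higher and 1 lower with TGF-β1. The 6 that rose were Skil, F3, Smad7, Bhlhe40, Gusb and Klf10, and the 1 that fell was Ier3. An unadjusted p under 0.05 was reached by 626 features (7.03%), 306 higher and 320 lower. The ratio had the same sign on all 6 arrays for 594 features (6.67%), and for each of the 7 called genes an exact sign-flip permutation test of the 6 arrays gave a two-sided p of 0.03125, the smallest that 64 sign patterns allow. Any feature with 1 sign on all 6 arrays gets this value, so it adds nothing to the shared sign. The number called depended on single arrays, with 0 without array 2 (477 at an unadjusted p under 0.05), 1 without array 4 or array 6, 2 without array 5, 5 without array 1 and 8 without array 3. Other settings multiplied it and turned the balance, to 91 (19 higher, 72 lower) with array weights, 88 (9 higher, 79 lower) with a dye term and the reversed arrays of other groups turned, and 17 (11 higher, 6 lower) with all arrays brought to 1 spread. It was 0 when the 6 arrays were fitted alone (711 unadjusted), and with a dye term 3 of the 7 genes (Skil, Smad7 and Ier3) kept their call if the reversed arrays had their sign turned and none did if they were used as deposited, in which case the 7 means kept their sign at sizes between 0.76 and 0.92.

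The stretches upstream of called genes are shown because binding sites for the factors that TGF-β and ras signals act through are commonly found there. Of the 9 genes looked up (the 7 called genes, Myc and Gadd45b), 4 matched an entry in the RefSeq promoter table (build GRCm38.p6). No stretch was obtained for Skil, Smad7, Klf10, Bhlhe40 and Myc, so the motif search does not cover them. The look-up left out entries on 1 chromosome, so a gene without a match may still have an entry. The 250 bases before the start of F3 (chr3:121723287-121723536, plus strand), Ier3 (chr17:35821463-35821712, plus strand) and Gusb (chr5:130003050-130003299, minus strand) are given 5′ to 3′, with capitals for a match to any of the motifs searched on both strands.
F3: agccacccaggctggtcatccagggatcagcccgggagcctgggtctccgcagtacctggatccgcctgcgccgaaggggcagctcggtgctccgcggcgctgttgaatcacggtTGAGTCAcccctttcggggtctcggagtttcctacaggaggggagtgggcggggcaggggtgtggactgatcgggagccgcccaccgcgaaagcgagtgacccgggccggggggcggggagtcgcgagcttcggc
Ier3: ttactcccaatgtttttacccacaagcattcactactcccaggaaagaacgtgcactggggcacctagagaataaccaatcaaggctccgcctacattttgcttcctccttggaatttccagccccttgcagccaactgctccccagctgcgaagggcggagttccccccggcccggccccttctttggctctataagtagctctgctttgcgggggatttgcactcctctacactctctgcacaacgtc
Gusb: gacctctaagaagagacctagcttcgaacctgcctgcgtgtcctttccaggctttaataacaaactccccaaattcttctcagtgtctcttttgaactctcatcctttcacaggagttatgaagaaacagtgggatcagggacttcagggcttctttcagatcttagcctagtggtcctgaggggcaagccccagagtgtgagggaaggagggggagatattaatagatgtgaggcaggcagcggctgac
The motifs were the AP-1 site TGAGTCA, the SMAD-binding element CAGAC, the SMAD palindrome GTCTAGAC and the E-box CACGTG. In these stretches the 1 match was an AP-1 site in F3, 135 bases before the start; the upstream stretch of Gadd45b, not shown, held 1 E-box. Among 32851 promoters of the table, 4.46% held the AP-1 site, 42.2% the SMAD-binding element, 0.167% the palindrome and 6.02% the E-box in the same window.

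The arrays were unequal, and this bears on every value. The SD of the log2 ratios over all probes was 0.235 on array 3, 0.307 on array 6 and between 0.593 and 0.806 on the other four. Pairs of the 6 arrays correlated weakly over all probes, with a median r of 0.051 over 15 pairs, 4 of them below 0 and the highest, 0.429, between arrays 3 and 4. Large single values sat on arrays 1, 2 and 5, where 37, 98 and 104 probes lay beyond 4 in size against 0 to 2 on the other three. Of 115 features with a mean beyond 1 in size, 100 had a median over the 6 arrays within 0.5 of 0, and 7 had a median beyond 1. The 9 features with a median beyond 1 were Myc, Ier3, Gusb, Efna1, Smad7, Bhlhe40, Skil, F3 and Fos, of which Ier3, Gusb, Smad7, Bhlhe40, Skil and F3 were called.

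**Figure D1:**
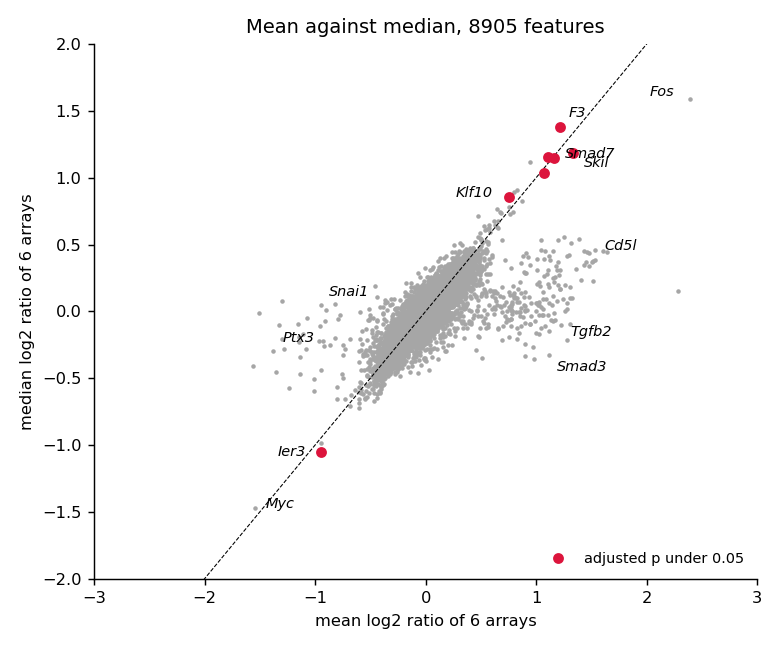
Mean (horizontal axis) against median (vertical axis) of the log2 ratio over the 6 arrays for 8905 features; the dashed line marks equality and red points are the 7 features with an adjusted p under 0.05. The called genes lie near the line, while 100 of the 115 features with a mean beyond 1 lie near a median of 0, as Cd5l, Tgfb2 and Ptx3 do.

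Of the 9 measured genes on the list of feedback regulators of the pathway, Skil and Smad7 rose and the other 7 did not pass. Of all features 0.0674% were called higher. Skil, which encodes the SMAD repressor SnoN, read 1.03, 1.96, 1.00, 1.64, 1.31 and 1.07 on arrays 1 to 6. No array lay below 1.00, and the mean was 1.34 ± 0.22 (SE of the fit; SD 0.39, n = 6), a 2.52-fold rise with an adjusted p of 0.00237. With any 1 array left out the mean was between 1.21 and 1.40, and the call was lost without array 2 (adjusted p 0.0682). Smad7, which blocks the receptors and sends them for degradation, read 0.93, 1.36, 0.28, 0.92, 2.07 and 1.42. Array 3, the one with the narrowest spread, was lowest and array 5 highest; the mean was 1.16 ± 0.23 (SD 0.60, n = 6), 2.24-fold, adjusted p 0.0173. It kept its call in 2 of the 6 fits that left out an array (without array 1 or 3), at means of 0.98 to 1.34. All 9 had a positive mean, against 50.2% of all features, and their median was 0.18 against 0.002 over all features. The other 7 had means between 0.04 (Pdlim1) and 0.26 (Smad6, the inhibitor of the BMP branch), and none of them reached an unadjusted p under 0.05. Among those were the ubiquitin ligases Smurf1 (0.17) and Smurf2 (0.11), Rnf111 (0.18), which is on the list although it degrades SnoN and Smad7 and so favours the signal, and the corepressor Tgif1 (0.13), whose 2 probes read 0.52 and -0.27.

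Components of the signal upstream gave no call, where 0.0786% of all features were called. The 6 measured receptors lay between -0.18 (Bmpr1a) and 0.16 (Acvr2b), with the type II TGF-β receptor Tgfbr2 at -0.004 ± 0.18. Of the signal-carrying SMADs, Smad2 had a mean of -0.23 ± 0.12, Smad4 of -0.03 ± 0.15, Smad1 of 0.18 ± 0.16 and Smad5 of 0.23 ± 0.12, with its 2 probes at -0.04 and 0.50. Smad3 shows how a single array can set a mean here, because its mean of 1.12 ± 0.49 came with values of 1.82, 6.71, -0.33, -0.76, -0.33 and -0.40. On 4 of the 6 arrays the ratio lay below 0, and without array 2 the mean was 0.00. Runx3, a nuclear partner of the SMADs, read 1.27, 0.17, 0.18, 0.72, 4.41 and 0.16, with array 5 far above the rest. The 9 measured ligands and activators had a median of 0.14. The highest of them, Tgfb2, had a mean of 1.23 ± 0.73 that rested on array 2 at 9.02, while the other 5 arrays lay between -1.03 and 0.24, and Tgfb1 had a mean of 0.12 ± 0.16.

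**Figure D2:**
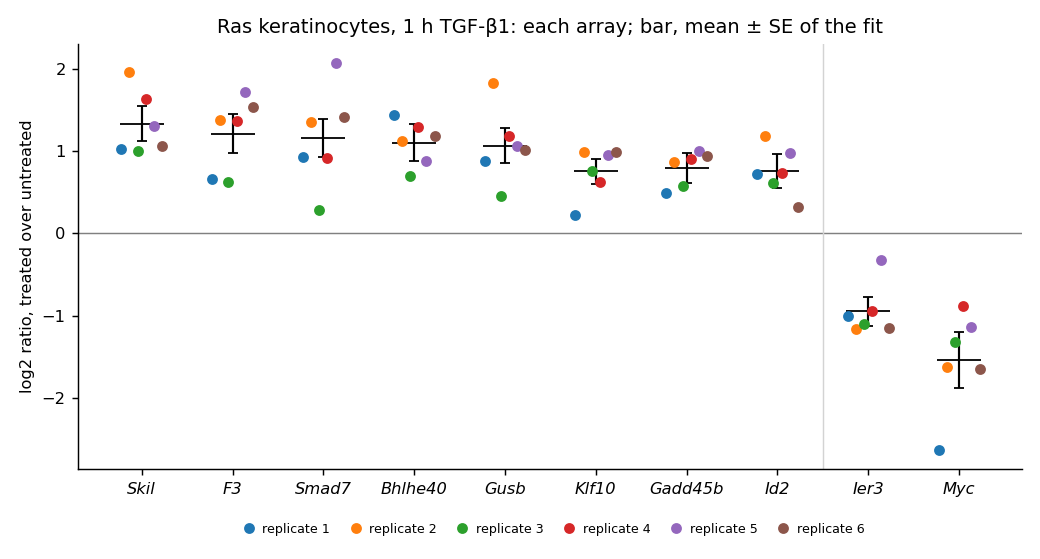
Log2 ratio of treated over untreated RNA (vertical axis) on each of the 6 arrays (coloured points, replicates 1 to 6) for the 7 called genes and for Gadd45b, Id2 and Myc, which were not called; the black bar is the mean with the SE of the fit. Every point of a gene lies on the same side of 0, and Skil has no array below 1.00.

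Transcription factors and other genes known to be switched on early by TGF-β formed the next group. Bhlhe40, a helix-loop-helix repressor that also tunes the circadian clock, read 1.44, 1.13, 0.70, 1.30, 0.88 and 1.18. Its arrays were close together (SD 0.27), with a mean of 1.11 ± 0.22 (n = 6), 2.15-fold, adjusted p 0.0173, and it kept its call only without array 3 among the 6 fits that left out an array (means 1.04 to 1.19). Klf10, a zinc finger factor first described as TGF-β-inducible early gene, read 0.22, 0.99, 0.76, 0.63, 0.96 and 0.99. Array 1 stood below the other 5; the mean was 0.76 ± 0.15 (SD 0.30, n = 6), 1.69-fold, adjusted p 0.0173, with the call kept only without array 1 (means 0.71 to 0.87). Gadd45b, a stress sensor that TGF-β induces through SMADs, came just outside the threshold with 0.49, 0.87, 0.58, 0.91, 1.00 and 0.94, a mean of 0.80 ± 0.18 and an adjusted p of 0.0634. Rhob, a small GTPase of the actin skeleton, had a mean of 0.68 ± 0.19 with all 6 arrays above 0 (0.10 to 0.97) and an adjusted p of 0.285, and Pdgfb, a growth factor for mesenchymal cells, had 0.66 ± 0.25 with 5 arrays above 0.

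Of the 21 measured members of a list of 30 early TGF-β targets, 5 rose and 1 fell at an adjusted p under 0.05, where 0.0674% and 0.0112% of all features did. At an unadjusted p under 0.05 the numbers were 8 higher and 2 lower, against 3.44% and 3.59% of all features. This list and the others were chosen with earlier results of these data known, so such counts are descriptions and no tests. The median of the 21 was 0.17. Ier3 is on this list as a gene that rises early elsewhere, and here it was the member that fell. Members that did not reach an unadjusted p under 0.05 included the cyclin kinase inhibitors Cdkn2b (0.07 ± 0.21) and Cdkn1a (0.22 ± 0.20), the adhesion modulator Ccn1 (0.24 ± 0.22), and the mesenchymal factor Snai2 (-0.25 ± 0.16). Snai1, its relative, had a mean of -0.94 ± 0.39 that rested on array 1 at -6.24 (0.12 without it); the other 5 arrays lay between -0.14 and 0.41. Junb, an AP-1 subunit often induced by TGF-β, was below 0 on all 6 arrays at a mean of -0.25 ± 0.22.

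The Id genes, which encode partners that disarm helix-loop-helix factors, were not called. Id2 was above 0 on every array (0.72, 1.19, 0.61, 0.74, 0.98 and 0.32), with a mean of 0.76 ± 0.20 and an adjusted p of 0.275. Id1 had a mean of 0.49 ± 0.32, with arrays 3 and 4 at 0.02 and -0.10 and the rest between 0.24 and 1.28. Id3 (-0.05 ± 0.20) and Id4 (-0.01 ± 0.14) were near 0.

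F3 encodes tissue factor, the cell-surface protein that starts blood clotting and the gene with the AP-1 match shown above. It read 0.66, 1.38, 0.63, 1.37, 1.72 and 1.54, so arrays 1 and 3 were low and the other 4 lay close together. The mean was 1.22 ± 0.24 (SD 0.46, n = 6), 2.32-fold, adjusted p 0.0173, with the call kept without array 1 or 3 and lost without any other (means 1.12 to 1.33). Of the other 10 measured genes of clotting start and fibrinolysis none was called, against 0.0786% of all features, and the list's median was -0.05. Thbd, thrombomodulin, which restrains clotting, had a mean of -0.32 ± 0.14 with 5 arrays below 0 and an adjusted p of 0.639.

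Gusb encodes the lysosomal enzyme β-glucuronidase, which is often used as a reference gene because its level is taken to be steady. Here it read 0.88, 1.83, 0.46, 1.18, 1.07 and 1.01. All 6 arrays were above 0, with a mean of 1.07 ± 0.22 (SD 0.45, n = 6), 2.10-fold, adjusted p 0.0173, with the call kept only without array 3 (means 0.92 to 1.19). Its mean was positive in 7 of the 8 Balb/c groups of the series, from -0.05 to 1.07, and passed the adjusted threshold at 6 h (1.00, adjusted p 0.00317) and 24 h (0.68, adjusted p 0.0376) in ras cells.

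The gene that fell was Ier3, an immediate early gene whose product modulates ERK signalling and cell survival. It read -1.0, -1.16, -1.10, -0.94, -0.32 and -1.15, so 5 arrays lay between -1.16 and -0.94 and array 5 stood apart. The mean was -0.95 ± 0.18 (SD 0.32, n = 6), a level 0.519 times that of untreated cells, adjusted p 0.0158. It kept its call without array 1, 3 or 5 and lost it without array 2, 4 or 6 (means -1.07 to -0.90). Myc, the factor whose loss accompanies growth arrest by TGF-β, read -2.63, -1.62, -1.32, -0.88, -1.14 and -1.65. No array was above -0.88, but the mean of -1.54 ± 0.35 (SD 0.61, n = 6) had an adjusted p of 0.0634 and so did not pass. Of 15 measured genes of growth arrest Myc was the 1 with an unadjusted p under 0.05, and Ccnd1, cyclin D1, was below 0 on all arrays at a mean of -0.46 ± 0.23 (adjusted p 0.703). Among 19 genes of ribosome synthesis and other MYC targets none was called, against 0.0786% of all features. Nme1 had a mean of -0.41 ± 0.13 (adjusted p 0.421) and Npm1 of -0.36 ± 0.15 (adjusted p 0.602).

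Of the 26 measured immediate early genes 5 were higher and 2 lower at an unadjusted p under 0.05, against 3.44% and 3.59% of all features. The 2 highest means were largely those of 1 array each. Fos, the AP-1 subunit, had the highest mean, 2.39 ± 0.61, on values of 1.5, 8.63, 0.45, -0.02, 2.10 and 1.68. Array 2 carried that mean, which was 1.14 without it; the median was 1.59 and the adjusted p 0.216. Cebpd, a factor of the acute response, had a mean of 1.51 ± 0.47 with array 5 at 6.71 and 3 of the others between -0.13 and 0.16. The list's median was 0.05. At an adjusted p under 0.05, 1 member rose (Klf10) and 1 fell (Ier3), where 0.0674% and 0.0112% of all features did. In the feedback of the MAP kinase pathway, through which the ras oncogene signals, none of 11 genes was called, against 0.0786% of all features. Dusp6, a phosphatase that switches off ERK, was below 0 on all arrays (-1.05, -0.29, -0.58, -0.33, -0.39 and -0.57; mean -0.53 ± 0.20, adjusted p 0.55), and Dusp2 had array 2 at 6.38 and no other array above 0.46.

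Messengers of inflammation and of other signals held several genes of one sign on all arrays without a call. Cxcl5, a chemokine that attracts neutrophils, read -1.12, -1.94, -0.29, -0.85, -0.21 and -1.29, with a mean of -0.95 ± 0.34 (adjusted p 0.547). Ccl20, which attracts dendritic and T cells, had a mean of -0.80 ± 0.29 and Csf1, the macrophage growth factor, of 0.64 ± 0.27 (0.30 to 1.06). Jag1, a Notch ligand, had a mean of 0.58 ± 0.23 (0.27 to 0.90). Rgs16, a brake on G protein signalling, lay between -1.17 and -0.31 with a mean of -0.67 ± 0.18 and an adjusted p of 0.282. Of the 19 chemokine and NF-κB genes 10 had a positive mean, against 50.2% of all features, and the median was 0.02.

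Genes of adhesion, the skeleton and the differentiated epidermis gave no call at 1 h, where 0.0786% of all features were called. Of 13 integrin and focal adhesion genes 12 had a positive mean, against 50.2% of all features. Above 0 on all 6 arrays were 3 of them, and 333 of all 8905 features. Their median was 0.26, and by array it was 0.575 on array 4 and 0.081 to 0.291 on the others. The highest, the laminin chain Lamb3, reached 0.40 ± 0.19 and was the 1 member with an unadjusted p under 0.05. The 12 targets of cell tension had a median of 0.19, led by Amotl2 (0.40 ± 0.20). The 24 extracellular matrix genes had a median of -0.04, the 12 epidermal differentiation genes of -0.15, and the 24 genes of mitosis of -0.04, each with no member called. Medians were -0.004 for 14 stress and apoptosis genes, -0.04 for 18 genes of the Notch, Wnt and hedgehog pathways, 0.07 for 5 EGFR ligands and receptors and -0.01 for the 14 KLF and helix-loop-helix factors that include Klf10 and Bhlhe40.

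The labelled cell type could be followed only as ratios, since no level per sample was used. The 14 measured keratinocyte markers lay between -0.25 (Sfn) and 0.36 (Pkp1) with a median of -0.04, and none reached an unadjusted p under 0.05. Markers of cells that a skin culture can also hold had medians of -0.05 (9 fibroblast genes), 0.07 (14 immune genes) and -0.10 (5 endothelial and melanocyte genes). Among all of these markers the 1 with an unadjusted p under 0.05 was the antigen-presentation gene H2-Aa at 0.62 ± 0.26, with array 5 at 1.77 and array 4 at -0.57. The part of other cell types in the results was not tested.

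**Figure D3:**
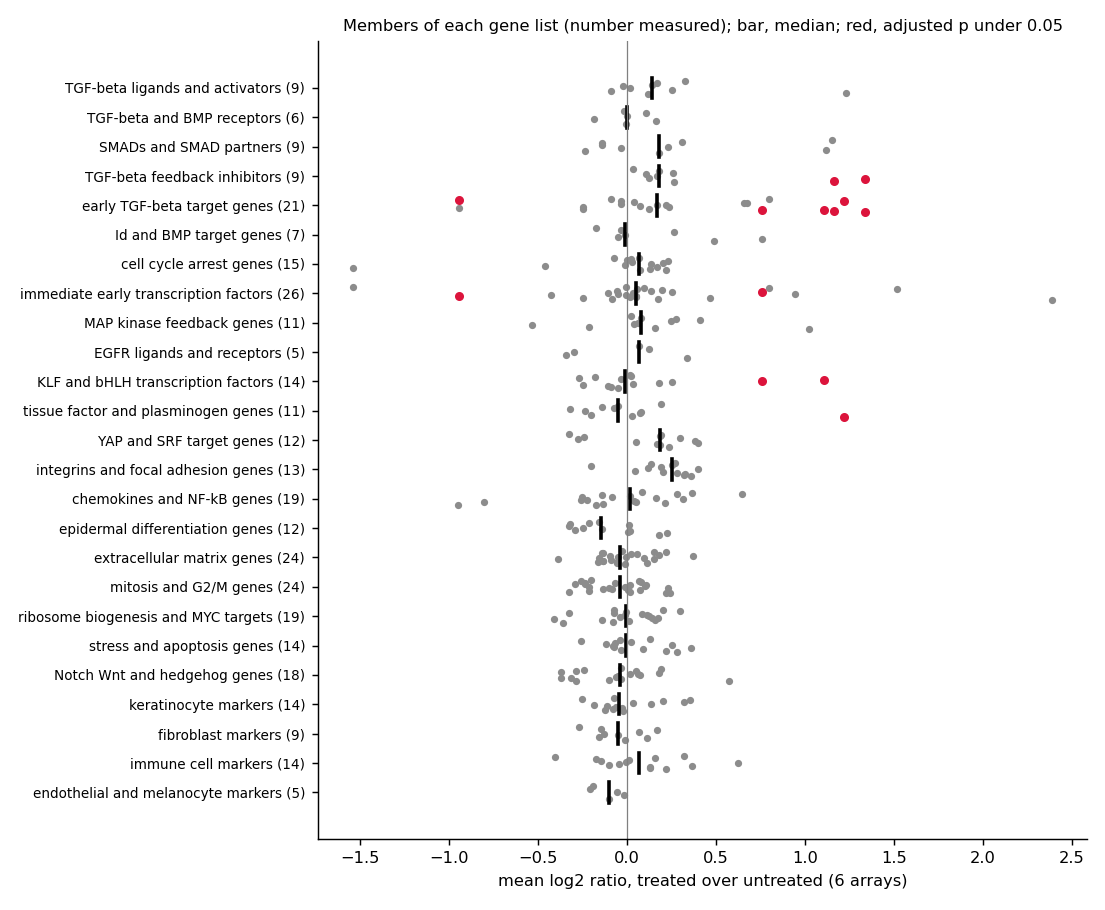
Mean log2 ratio over the 6 arrays (horizontal axis) of the measured members of 25 gene lists; grey points are genes, red points those with an adjusted p under 0.05, and black bars the list medians, with the number measured in brackets. The red points sit in the lists of feedback inhibitors, early TGF-β targets, immediate early genes, KLF and bHLH factors and tissue factor genes, and medians lie between -0.15 and 0.26.

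To ask whether the oncogene altered the first hour of the response, the ras arrays were set against the 6 arrays of primary keratinocytes. No feature passed for the difference (0 of 8905, or 0%, smallest adjusted p 0.618), and 371 had an unadjusted p under 0.05 (4.17%). In primary cells Klf10 was the 1 feature called (0.0112%), with 0.53, 0.43, 0.71, 0.68, 1.69 and 0.98 and a mean of 0.84 ± 0.15 (adjusted p 0.0225). Its ras minus primary difference was -0.08 (95% interval -0.52 to 0.36). Skil and Smad7 were above 0 on all 6 primary arrays, at means of 1.02 and 0.98, with differences of 0.32 (-0.30 to 0.93) and 0.18 (-0.48 to 0.84). The intervals are wide and do not show that the cell types responded alike. The difference was 0.64 (-0.05 to 1.33) for F3, 0.59 (-0.05 to 1.23) for Bhlhe40 and 0.44 (-0.18 to 1.05) for Gusb, and none of them passed.

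The gene among the called ones that was furthest apart between the cell types was Ier3. Primary arrays read -0.52, -0.17, -0.48, 0.07, 0.07 and -0.61 (mean -0.27 ± 0.18), and the difference was -0.67 (95% interval -1.18 to -0.17), with a limma p of 0.0101 before and 1 after adjustment over all features. Titles carry a database number, and the arrays fall into runs of these numbers; Ier3 was lower in ras cells within all 5 runs that held both cell types (-1.01 to -0.39). So was Myc (-0.52 to -0.23), and F3 was higher in all 5 (0.05 to 1.27). Of all features, 554 (6.22%) had 1 sign in the 5 runs. Cxcl5 and Dusp6 were among the 35 features (0.393%) whose ras arrays did not overlap the primary arrays. Primary means were 0.35 for Cxcl5 and 0.11 for Dusp6, and the differences were -1.30 and -0.64, within runs -2.66 to -0.39 and -0.63 to -0.40. Without overlap each run must have this sign, so for these genes the runs add nothing to it. For Myc the difference was -0.57 (-1.56 to 0.42), with all 6 primary arrays below 0 (-1.32 to -0.37).

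Setting 6 h against 1 h in ras cells gave no call either (0%, smallest adjusted p 0.317, 545 features or 6.12% at an unadjusted p under 0.05). With array weights the same contrast gave 230 calls (204 higher and 26 lower at 6 h), and with all arrays brought to 1 spread it gave 3. At 6 h against untreated cells 154 features were called (1.73%), and Skil (0.96), Smad7 (0.86), F3 (1.41), Bhlhe40 (0.78), Gusb (1.00) and Myc (-1.18, adjusted p 0.0404) were among them. Of the 7 genes called at 1 h, Ier3 and Klf10 were not. Ier3 had a mean of -0.445 at 6 h (adjusted p 0.194), and its difference from 1 h was 0.501 (95% interval 0.016 to 0.985, adjusted p 0.808). The arrays of Klf10 at 6 h read 0.15, 0.15, 0.03, 0.11, -0.69, -0.69 and 0.11, all below the 1 h arrays. Its difference was -0.88 (95% interval -1.30 to -0.46, adjusted p 0.317). Id2 was also without overlap between the times, at -0.93 to 0.01 after 6 h, a difference of -1.04 (-1.60 to -0.48; adjusted p 0.347). Id1 went from a mean of 0.49 to -0.80, with overlapping arrays. In the other direction Snai2 had -0.25 at 1 h and 0.70 at 6 h (difference 0.94, adjusted p 0.317) and Cdkn2b, an inhibitor of the cell cycle, had 0.07 and 0.89, both with no overlap between the times. Among all features 58 (0.651%) had no overlap between the 1 h and 6 h arrays. The 7 arrays at 6 h were closer to each other than those at 1 h, with a median r of 0.155 over 21 pairs and the highest, 0.452, between replicates 1 and 2.

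Later in the course the called genes differed in whether they passed, but no contrast of 24 h or 48 h with 1 h was fitted. The 48 h group held fewer arrays, and its SE for F3 was 0.30 against 0.24 at 1 h. At 24 h Skil (0.12), Smad7 (0.04) and F3 (-0.54) were not called, Bhlhe40 stood at 0.41 and Klf10 was below 0 (-0.57, adjusted p 0.0167). At 48 h Skil was again called (0.92, adjusted p 0.0426), while F3 (0.83), Smad7 (0.31) and Bhlhe40 (0.71) did not pass. Ier3 was at 0.12 and 0.19 and Myc at 0.04 and 0.37 at 24 and 48 h, with no call.

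**Figure D4:**
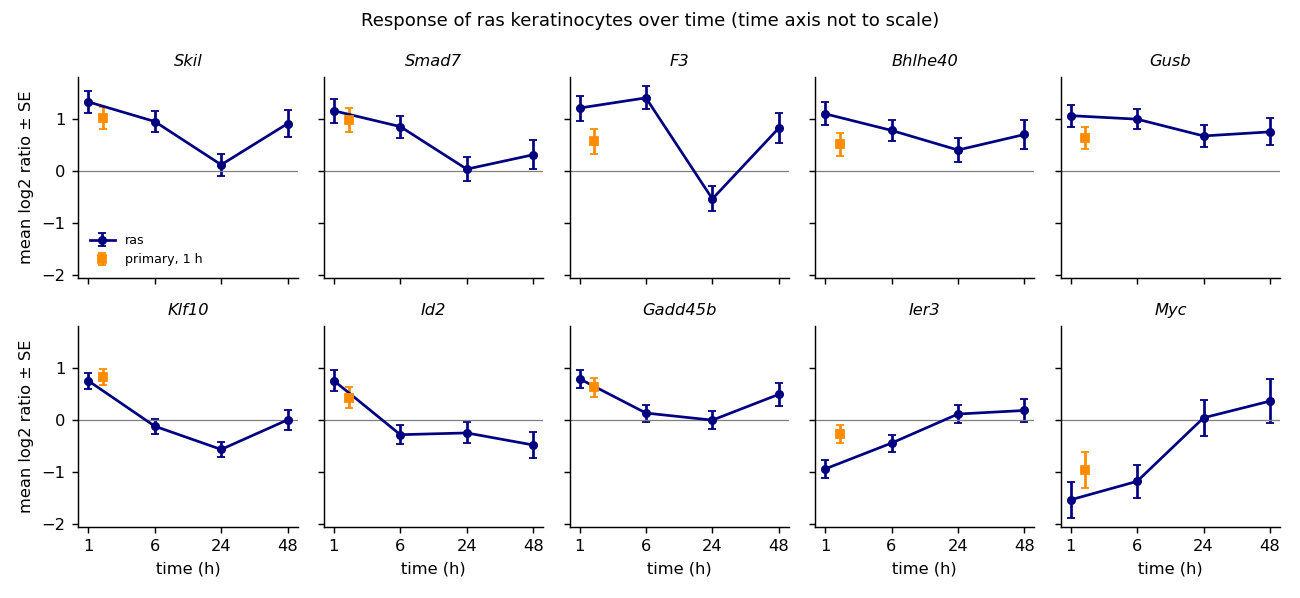
Mean log2 ratio with the SE of the fit (vertical axis) in ras keratinocytes at 1, 6, 24 and 48 h (blue) and in primary keratinocytes at 1 h (orange) for 10 genes; the time axis is not to scale. Klf10, Id2 and Gadd45b are highest at 1 h and lower at 6 h, F3 and Gusb are as high at 6 h as at 1 h, and Ier3 and Myc are lowest at 1 h.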

How the data were processed

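The files hold, for each of 56 arrays and 9596 probes, a ratio that the authors deposited on a log scale, used here as log2 (none is missing). Their log base is not stated; base 2 was taken because sizes pass 10. How the authors scanned, background-corrected and normalized is not given in the sources used here. Untreated RNA was in channel 1 and treated RNA in channel 2, per the labels. Without spot brightness the signal behind a ratio is not known here, and precision is limited by how many arrays there are.

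The platform annotation gave 1 symbol for 7486 probes, several for 483 and none for 1627, and 7395 of the first matched RefSeq. Arrays were centred on their probe median and probes of a symbol averaged (631 genes with several), giving 8905 features. limma 3.58.1 in R 4.3.3 (lmFit, eBayes) fitted group means over the 49 arrays with treated RNA in Cy5, so that groups share 1 estimate of the spread. These arrays included Smad3 wild-type and Smad3 knockout cells at 48 h. Each of those groups had 1 array and its own mean, so it added nothing to the spread. The 7 reversed arrays, none at 1 h and some from Smad3 knockout cells, were left out because whether their sign was turned is not stated. Two-sided p-values were adjusted over all features (Benjamini-Hochberg), with a threshold of 0.05. The script was tested on simulated data. Named genes are all called features, the 12 largest rises and falls with 1 sign on all 6 arrays and an unadjusted p under 0.05, the 4 largest members of each list and all measured members of the receptor, SMAD, feedback, early target and Id lists. Tgfb1 is named in the text outside this rule. Efna1, and which of these genes serve as examples, were chosen after their values were seen. The members and the gene lists were chosen with earlier results of these data known, so a list's direction is not independent evidence. Alternatives were no centring, 1 spread for all arrays, array weights, the run of database numbers as a random term, fewer groups, a robust variance model, the reversed arrays with a dye term, single probes, the replicate number as a block, and leaving out each array; leaving out arrays 3 and 4 together was chosen after seeing the data.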

Additional observations from a re-analysis of the deposited data

Results flagged for a closer look

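Among the 135 named genes, 22 had 1 of the 6 arrays far from the others, with a gap to its neighbour, as a share of the whole range, above Dixon's 95% limit. Chance exceeds that limit in about 1 gene in 20 and, of all 8905 features, 962 (10.8%) exceeded it. Many of the 135 were named for a large mean, which a single array can make, so their share (16.3%) is a description and no test. Of these 22 arrays 9 were replicate 5, 6 replicate 2, 5 replicate 1 and 1 each replicates 4 and 6. Ier3 was the called gene among them, with replicate 5 at -0.32 against a median of -1.10 on the other arrays (gap 0.734 of the range).

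On replicate 5 the gap was 0.929 for Cd5l (7.08), 0.931 for Heg1 (6.00), 0.802 for Sema4d (3.85), 0.782 for Zfp512b (6.20), 0.738 for Runx3 (4.41), 0.679 for Cebpd (6.71), 0.638 for Hira (4.52) and 0.633 for Morc1 (4.07), all high. For these 8 genes the other arrays had medians between 0.16 and 0.33. On replicate 2 it was 0.883 for Dusp2 (6.38), 0.873 for Tgfb2 (9.02), 0.755 for Fos (8.63), 0.702 for Egfr (1.14), 0.654 for Smad3 (6.71) and 0.634 for Nid1 (2.40), all high.

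On replicate 1 the low genes were Ptx3 (-6.82, gap 0.968), Snai1 (-6.24, gap 0.917), Plat (-1.05, gap 0.86) and Bcl6 (-1.0, gap 0.837), and the high one was Lox (0.89, gap 0.694). Replicate 4 was low for Id4 (-0.59, gap 0.737), and replicate 6 was high for Tgif1 (0.49, gap 0.70).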

How the results depend on the processing

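The 7 genes called at 1 h kept their direction under every alternative tried. Their number was 17 with all arrays brought to 1 spread (11 higher, 6 lower), 91 with array weights (19 higher, 72 lower), 88 with the reversed arrays turned and a dye term (9 higher, 79 lower), and 0 with them as deposited and a dye term or with ras 1 h fitted alone. Leaving out 1 array gave 0 to 8 calls, and leaving out arrays 3 and 4 gave 6, of which Skil and Smad7 were among the 7. The 7 stayed called without centring, with single probes, with the robust variance model, without the widest arrays of other groups and with the run of database numbers as a random term (8 calls). Myc passed with the spread equalised, the weights, the random term or the turned arrays. For 6 h minus 1 h, array weights gave 230 calls (204 higher, 26 lower) and the equalised spread 3 (2 higher, 1 lower), while the other alternatives gave 0; for ras minus primary all gave 0. The causes were not tested. Of the uncalled named genes 53 changed sign under at least 1 alternative.

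The labels do not say that a shared replicate number marks a shared sample or day. Between ras and primary cells 5 of the 6 same-numbered pairs lay in 1 run of database numbers, and between 1 h and 6 h 2 of 5. Deviations of same-numbered arrays correlated at 0.001 to 0.182 between ras and primary (4 of 6 arrays matched their own number best) and at -0.267 to 0.013 between 1 h and 6 h (0 of 5). With the replicate number as a block, 0 features were called for either difference (426 and 433 at an unadjusted p under 0.05).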

Other observations

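Ranked by the weakest of the 6 arrays, several genes that were not called stood among the called ones, Dyrk3, Inava, Clic4 and Patz1 among them. Dyrk3, a kinase that dissolves stress granules, read 1.08, 0.84, 0.66, 0.81, 0.79 and 1.07, the fourth in that order of all features, with an SD between arrays of 0.17. Its SE from the fit over all groups was 0.45, so the mean of 0.88 had an adjusted p of 0.709. Inava, a regulator of innate signals and of epithelial junctions, read 0.49, 0.70, 0.64, 1.14, 0.80 and 0.96, with a mean of 0.79 ± 0.21 (SE), an adjusted p of 0.252, and 0.74 at 6 h. Dyrk3, Inava, Clic4 and Patz1 were chosen after their values were seen.

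Efna1, a ligand of Eph receptors that keratinocytes use at cell contacts, read 1.40, 0.83, -0.03, 0.17, 1.75 and 1.54, so arrays 3 and 4 lay near 0 and the other 4 at 0.83 or above (mean 0.94 ± 0.23 SE, adjusted p 0.18). Clic4, a chloride channel protein that moves to the nucleus under TGF-β, was above 0 on all 6 arrays (0.30 to 1.05) with a mean of 0.56 ± 0.19 (SE) and an adjusted p of 0.523, and stood at 0.98 at 6 h. Patz1, a zinc finger repressor, was below 0 on all 6 (-0.71 to -0.30), with a mean of -0.48 ± 0.18 (SE) and an adjusted p of 0.557.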
